A study of Mus musculus with 2 samples.

Results

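The genes described here are 40 genes of the cell division cycle, out of 32285 genes in the deposited tables, followed across every cell class of a tumour-grafted mouse brain. They were taken by symbol: 3 D-type cyclins (G1), 2 E-type cyclins (G1/S), 13 S phase genes, 13 G2/M genes, 3 genes of chromatin and tubulin that are high in growing cells, and 6 genes (Mki67, Top2a, Birc5, Cdk1, Cenpf and Ube2c) that served to call a cell cycling. A cell was called cycling when it held a unique molecular identifier (UMI, 1 captured mRNA molecule) of at least 3 of those 6. All 40 symbols were found in both tables.

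The study profiled dissociated brain tissue by droplet single-cell RNA sequencing in 2 libraries, 1 per group. Both came from C57BL/6 hosts that carried a graft of KR158, a mouse glioblastoma line, and both groups received tamoxifen at 100 mg/kg every other day from 3 days before the graft until 8 weeks after it. The control host was Cx3cr1 CreER/+ Plxnb2 fl/+ (titled WT by the submitters, although it carries the Cre driver and 1 floxed allele), and the cKO host was Cx3cr1 CreER/+ Plxnb2fl/fl. CreER is driven by Cx3cr1, a gene of microglia and other myeloid cells, so the designed deletion of Plxnb2 (Plexin-B2, a guidance receptor) lies in those cells and not in neural cells. With 1 library per group no difference between the groups has a replicate check, and no test of the conditions was possible. Intervals are 95% and cover counting error only, and differences between the libraries cannot be told apart from differences between 2 mice or 2 preparations.

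Cells that divide pass from growth (G1) through DNA replication (S) to a gap and mitosis (G2/M). D-type and then E-type cyclins with their kinases inactivate the retinoblastoma proteins, which releases E2F factors that switch on replication genes; later genes of mitosis are bound by the DREAM and MuvB complexes at CHR elements and by NF-Y at CCAAT boxes. In the adult mouse brain the known standing populations of dividing cells are the neural progenitors and young neuroblasts of the subventricular zone and oligodendrocyte precursors, while microglia divide slowly at rest and more often after injury or near tumours.

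Promoter sequences are shown for 2 S phase genes that were lower in cycling microglia-marked cells than in cycling neural cells (Mcm2, Mcm6), a G2/M gene that was higher (Ccnb2), a G2/M gene at an equal level (Kif11) and 2 of the genes that call a cell cycling (Top2a, Mki67). Each is the 250 bases before the transcription start from RefSeq (GRCm38.p6), and only windows without any annotated exon are shown. Capitals mark the E2F letters TTTCCCGC, TTTGGCGC, TTTCGCGC or TTTGCCGC, the CHR letters TTTGAA or TTCGAA, and the CCAAT box CCAAT, on either strand (so that ATTGG is a CCAAT box read from the other strand); 2 of the E2F matches of Mcm6 overlap.
Mcm2: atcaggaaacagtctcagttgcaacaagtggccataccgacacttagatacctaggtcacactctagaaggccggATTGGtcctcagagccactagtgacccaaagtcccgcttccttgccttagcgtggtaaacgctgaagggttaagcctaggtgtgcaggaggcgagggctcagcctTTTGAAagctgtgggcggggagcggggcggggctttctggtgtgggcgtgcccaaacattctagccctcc
Mcm6: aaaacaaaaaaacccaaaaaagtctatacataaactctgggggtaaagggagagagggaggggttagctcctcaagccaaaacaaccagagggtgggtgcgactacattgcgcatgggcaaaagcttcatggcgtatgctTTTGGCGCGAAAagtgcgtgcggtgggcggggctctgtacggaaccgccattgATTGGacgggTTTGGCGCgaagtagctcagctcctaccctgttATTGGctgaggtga
Ccnb2: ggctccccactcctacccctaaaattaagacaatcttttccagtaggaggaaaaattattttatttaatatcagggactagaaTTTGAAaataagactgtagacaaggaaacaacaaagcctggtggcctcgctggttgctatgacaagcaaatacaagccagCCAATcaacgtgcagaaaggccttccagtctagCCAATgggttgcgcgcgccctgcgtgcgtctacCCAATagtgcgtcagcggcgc
Kif11: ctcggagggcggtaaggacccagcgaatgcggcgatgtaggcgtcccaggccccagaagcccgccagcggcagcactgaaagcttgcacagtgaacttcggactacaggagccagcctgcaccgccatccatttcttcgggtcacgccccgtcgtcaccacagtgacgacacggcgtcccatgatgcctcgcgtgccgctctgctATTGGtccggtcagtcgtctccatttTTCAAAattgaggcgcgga
Top2a: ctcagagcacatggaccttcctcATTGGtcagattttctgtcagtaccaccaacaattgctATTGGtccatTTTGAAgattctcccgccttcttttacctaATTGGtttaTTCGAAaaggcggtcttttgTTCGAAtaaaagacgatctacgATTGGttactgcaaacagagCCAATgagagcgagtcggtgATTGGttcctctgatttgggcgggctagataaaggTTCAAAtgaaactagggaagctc
Mki67: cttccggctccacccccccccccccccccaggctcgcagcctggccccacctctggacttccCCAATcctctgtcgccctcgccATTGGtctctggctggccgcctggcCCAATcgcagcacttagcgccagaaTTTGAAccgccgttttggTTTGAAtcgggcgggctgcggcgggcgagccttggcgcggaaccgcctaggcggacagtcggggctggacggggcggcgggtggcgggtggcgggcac
Mcm2 (chr6:88898781-88899030, minus strand) and Mcm6 (chr1:128359706-128359955, minus strand) encode subunits of the replicative helicase. Ccnb2 (chr9:70421555-70421804, minus strand) encodes a mitotic cyclin and Kif11 (chr19:37376132-37376381, plus strand) the kinesin that separates the spindle poles. Top2a (chr11:99024190-99024439, minus strand) encodes DNA topoisomerase II alpha and Mki67 (chr7:135716380-135716629, minus strand) the Ki-67 protein of mitotic chromosomes. Promoter entries were matched for 31 of the 40 genes. The E2F letters were in 4 of 11 S phase promoters (36.4%), in 0 of 10 G2/M promoters and in 1.91% of all 27025 promoters. The CHR letters were in 4 of the 6 promoters of the cycling-call genes (66.7%), in 3 of 10 G2/M promoters, in 2 of 11 S phase promoters (18.2%) and in 17.4% of all promoters. CCAAT was in 25 of the 31 (80.6%), against 34.5% of all promoters. A match of letters is a description and not a bound site.

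After filters and removal of called doublets, 7645 control and 5206 cKO cells were kept, with a median of 4626 and 5917 UMIs per cell. Cells were clustered without 311 cell cycle genes and named by marker lists; no cluster was led by the tumour marker list, so the grafted line was not found as a class of its own. The neuroblast- or progenitor-like class, called neural below, held 231 control and 342 cKO cells in 2 clusters. The microglia-like class held 1303 and 593 cells in 2 clusters, of which 1 held most of the control cells (1018) and the other most of the cKO cells (331), and 2 further clusters with microglial markers but low depth were left unnamed. All of these together are called microglia-marked. Choroid plexus-like cells numbered 358 in control and 4 in cKO, so the makeup of the sampled tissue moved with the groups, and its part in the values below was not tested. The libraries shared 8 barcodes among their cells, none of them in a cycling cell.

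Cycling cells were found in the neural class of both libraries and, in the cKO library, also among microglia-marked cells. In control, 77 of 7645 cells cycled (1.01%, interval 0.796 to 1.26), and in cKO 146 of 5206 (2.8%, interval 2.37 to 3.29). The neural class held 92.2% of the cycling cells of the control library and 63% of those of the cKO library. Microglia-marked clusters held 1 of the 77 in control and 52 of the 146 (35.6%) in cKO. Cycling cells were deeper than the rest, with a median of 12479 UMIs in control and 12636 in cKO against 4596 and 5844 in the other cells, so each share is also given after every cell was thinned to 1000 UMIs; thinned in this way, 0.379% of control and 1.46% of cKO cells met the rule.

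**Figure D1:**
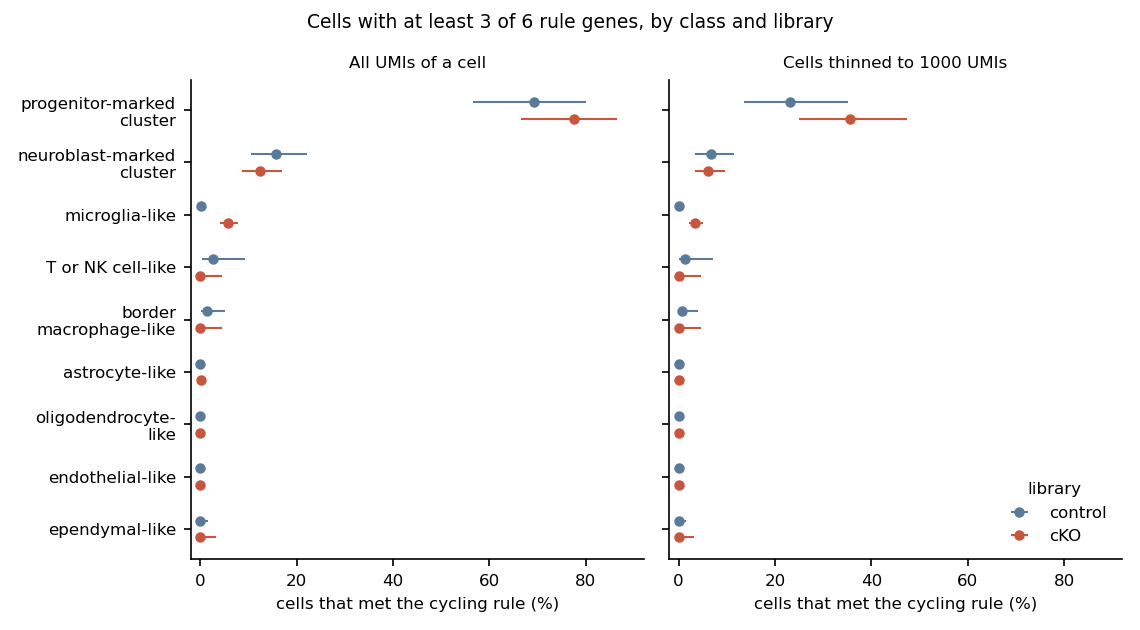
Share of cells that met the cycling rule (x axis, percent) in each neural cluster and main class (y axis), by library, with all UMIs (left) and with each cell thinned to 1000 UMIs (right); points are shares and bars exact 95% binomial intervals for counting error. The progenitor cluster lies highest in both libraries (69.2% and 77.6% with all UMIs), and microglia-like cells lie at 0.0767% in control and 5.73% in cKO.

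In the neural class, 71 of 231 control cells (30.7%, interval 24.9 to 37.1) and 92 of 342 cKO cells (26.9%, interval 22.3 to 31.9) cycled, and the intervals overlap. After thinning to 1000 UMIs the shares were 11.3% and 12.6%. The cluster led by progenitor markers (Egfr, Dll1, Dll3 and others) cycled most: 45 of 65 control cells (69.2%, interval 56.6 to 80.1) and 59 of 76 cKO cells (77.6%, interval 66.6 to 86.4). The cluster led by neuroblast markers (Dcx, Dlx1, Sp8 and others) held fewer, 26 of 166 (15.7%) and 33 of 266 (12.4%). The progenitor cluster was also the deeper of the pair, with a median of 12955 and 15878 UMIs against 4681 and 5184; thinned to 1000 UMIs, it cycled at 23.1% and 35.5% against 6.63% and 6.02%. The progenitor cluster therefore stood above the neuroblast cluster in both libraries at equal depth.

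Among microglia-like cells 1 of 1303 control cells (0.0767%, interval 0.00194 to 0.427) and 34 of 593 cKO cells (5.73%, interval 4 to 7.92) cycled. These intervals do not overlap, and thinned shares were 0.0767% and 3.37%. Within the class, 30 of the 34 cKO cells lay in 1 cluster, where they made up 9.06% of 331 cells against 1 of 285 in control; the other cluster held 4 of 262 in cKO and 0 of 1018 in control, which allows a share of up to 0.295%. The low-depth clusters added 15 of 202 (7.43%) and 3 of 153 (1.96%) cKO cells and 0 of 104 and 0 of 364 control cells. Over all microglia-marked clusters the shares were 1 of 1771 (0.0565%) and 52 of 948 (5.49%). The microglia-like class was deeper in cKO, with a median of 6213 UMIs against 3938. Classes drawn from each cell's own markers, without clusters, gave 2 of 2047 control and 52 of 1055 cKO cells with microglial markers (0.0977% and 4.93%), and 56 of 197 and 84 of 322 cells with neural markers (28.4% and 26.1%).

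The cycling microglia-marked cells of the cKO library held the microglial markers. All 52 held at least 5 of the 10 microglial markers, 30 held all 10, and the neural progenitor markers Egfr, Dll1, Dll3, Gsx2 and Dlx1as were at 0 in every one of them. Of the monocyte list Ly6c2, Ccr2, Chil3 and F10 were at 0, with 257 CPM (UMIs per 1000000 UMIs of the group) summed over the list. The tumour list summed to 106 CPM with Tnc and Gap43 at 0, and 2 of the 52 cells held at least 4 of its 8 genes. The astrocyte list summed to 933 CPM there, against 784 CPM in the other microglia-marked cells of cKO. Between the same groups, cycling and other, the oligodendrocyte list summed to 576 and 196 CPM, the neuroblast list to 86.9 and 13.3 CPM (1 cycling cell held 9 of its 10 genes), the tumour list to 106 and 46 CPM and the microglial list to 19297 and 28451 CPM; their part in the values below was not tested. P2ry12, a receptor of resting microglia, stood at 943 CPM in the cycling and 2412 CPM in the other microglia-marked cells of cKO. In the neural class, 9 of the 71 cycling control cells and 1 of the 92 cycling cKO cells held at least 5 microglial markers, which leaves shares of 28.4% and 27% without any such cell. In cycling neural cells the tumour list summed to 431 CPM in control and 422 CPM in cKO, of which Vim made up 291 and 287 CPM, with Tnc at 0 in both. At least 4 of its 8 genes were held by 2 of 71 control and 7 of 92 cKO cycling neural cells. Among the other neural cells, which were shallower, 1 of 160 and 2 of 250 did so. Whether any of the cycling neural cells came from the graft was not tested. Plxnb2 itself stood at 215 CPM in control and 42.2 CPM in cKO in the other microglia-marked cells, at 15.5 CPM (8 UMIs) in the 52 cycling cells, and at 63.9 and 49.4 CPM in cycling neural cells. Its 3′ tags need not fall in the deleted exons, so these levels do not check the deletion.

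Outside these classes cycling cells were rare. No cluster was led by the marker list of oligodendrocyte precursors, so these were not found as a class and their cycling share could not be read. In control 5 of 5643 other cells cycled (0.0886%): 2 T or NK-like cells, 2 border macrophage-like cells and 1 choroid plexus-like cell. The choroid plexus-like cell also held 9 of the 10 neuroblast markers, and a T or NK-like cell with 12479 UMIs held 4 of the 6 progenitor markers. Whether such cells were mixed or misplaced was not tested. In cKO 2 of 3916 did (0.0511%): 1 astrocyte-like cell and 1 cell of an unnamed cluster. Oligodendrocyte-like cells, which are post-mitotic, gave 0 of 938 and 0 of 559 at a median of 6393 and 7585 UMIs, which allows shares of up to 0.32% and 0.537% and serves as the background of the rule in cells that do not divide. Endothelial-like cells gave 0 of 687 and 0 of 894 (up to 0.437% and 0.336%) and ependymal-like cells 0 of 240 and 0 of 111 (up to 1.25% and 2.7%). A UMI of a single cycling-call gene was more frequent, in 51 of the 938 control and 32 of the 559 cKO oligodendrocyte-like cells; 0 control cells and 1 cKO cell held 2 of the genes.

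The balance of S phase and G2/M genes differed between the classes that cycled. It was read as the log2 ratio of the summed UMIs of the 13 S phase genes to those of the 13 G2/M genes, none of which enters the cycling call. The ratio has no meaning of its own, because the genes differ in length and capture, and only its differences between groups are read. Cycling neural cells stood at 0.58 in control (3147 S phase against 2109 G2/M UMIs, interval 0.50 to 0.66) and 0.25 in cKO (4286 against 3605, interval 0.19 to 0.31). Cycling microglia-marked cells of cKO stood at -0.97 (777 against 1526, interval -1.10 to -0.85). The single cycling microglia-like cell of control, with 21595 UMIs, stood at -0.93 (34 against 65). The microglia-marked cells of cKO thus lay 1.22 below the neural cells of the same library on the log2 scale (difference -1.22, interval -1.37 to -1.08), and the named microglia-like cells alone gave -1.26. In cells that did not meet the rule, the ratio stood at 4.57 in neural and 3.92 in microglia-marked cells of cKO. The control values of these groups were 4.21 and 4.45. Whether the gap in cycling cells marks a difference in cycle phase was not tested.

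**Figure D2:**
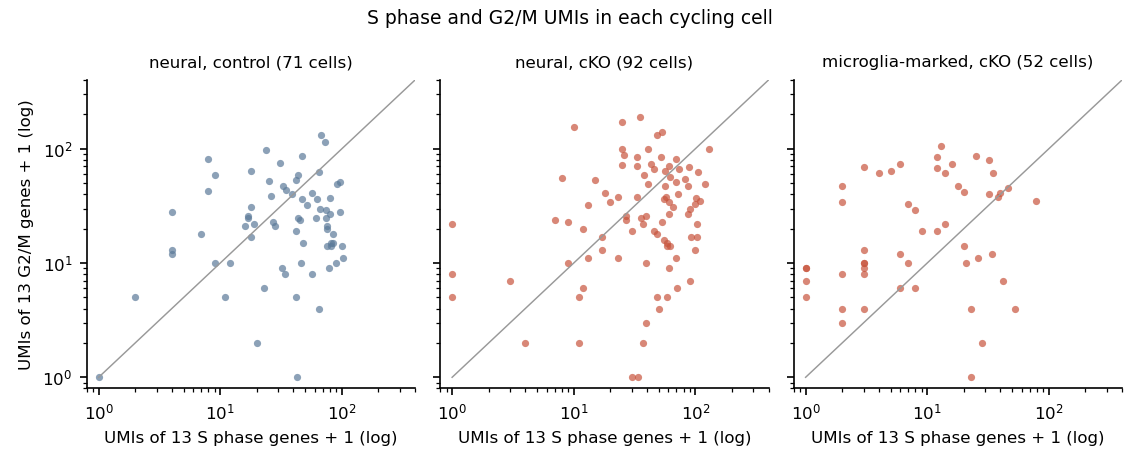
UMIs of the 13 S phase genes plus 1 (x axis, log scale) against those of the 13 G2/M genes plus 1 (y axis, log scale) in each cycling cell, 1 point per cell, for neural cells of control and cKO and microglia-marked cells of cKO; the line marks equal counts. Above the line, with more G2/M UMIs, lie 27 of 71, 34 of 92 and 38 of 52 cells.

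Cell by cell the same order was seen. More S phase than G2/M UMIs were held by 43 of 71 cycling neural cells in control and 57 of 92 in cKO, but by 12 of 52 microglia-marked cells in cKO. The median share of S phase UMIs among the UMIs of both lists, over cells with at least 10 of them, was 63.9% in control neural cells (quartiles 40 to 79.8), 60.3% in cKO neural cells (37.7 to 76.2) and 31.2% in cKO microglia-marked cells (16.4 to 54.4). Quartile ranges overlap, and single cells ran from 0% to 100% in neural and from 2.13% to 100% in microglia-marked cells of cKO. Within the neural class the ratio stood higher in the progenitor cluster than in the neuroblast cluster, at 0.80 against 0.05 in control (difference 0.75, interval 0.57 to 0.93) and at 0.42 against -0.23 in cKO (difference 0.65, interval 0.50 to 0.80). The progenitor cluster was the deeper of the pair, and this difference was not read at equal depth. Between libraries cycling neural cells differed by -0.33 (interval -0.43 to -0.22). That direction depended on the depth: with cells thinned to 1000 UMIs the cKO ratio was the higher one (-0.21 against -0.99 in control), and with cells thinned to 2000 UMIs the lower one (-0.22 against -0.05).

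The level at which the ratio sits moved with the rule that calls cells cycling, whose 6 genes are known to peak late in the cycle. With a call from 6 S phase genes in place of them, cKO microglia-marked cells stood at 0.07 and neural cells at 0.77. With all cells thinned to 1000 UMIs before the call, neural cells stood at -0.99 in control and -0.21 in cKO and microglia-marked cells at -1.36. The microglia-marked cells lay below the neural cells of cKO under each of these settings, by -0.69 and -1.15.

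Taken over all cells of a class, the ratio was higher than in cycling cells in the 3 named classes with over 100 cells and 0 cycling cells in each library. Oligodendrocyte-like cells stood at 4.46 in control and 4.19 in cKO, and endothelial-like cells at 3.92 and 3.95. Ependymal-like cells stood lower, at 1.43 and 1.29, with 0 cycling cells. Microglia-like cells stood at 3.23 in control and 0.09 in cKO, the widest gap between the libraries among these 4 classes.

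In cycling neural cells all 40 genes passed the minimum of 20 CPM on average, and 0 lay past 2-fold between the libraries. This is near the share over all genes that passed, 1.53%. The interval of the log2 ratio lay above 0 for 9 of the 40 genes and below 0 for 5. The share of all genes with such an interval is not given, so these counts are not read as a result about the 40. The median log2 ratio of cKO to control was 0.02 over the 40 and 0.05 over all genes. S phase genes had a median of -0.18 and G2/M genes of 0.21. The highest were Plk1, the polo kinase of mitosis, at 0.74, Tpx2, a spindle assembly factor, at 0.49, Aurkb at 0.45, Ccna2 at 0.32 and Ccnb2 at 0.31. The lowest were Ccnd1 at -0.89, Ccne2 at -0.57, Ccnd3 at -0.56, Gins2 at -0.45 and Uhrf1 at -0.42. Over the whole neural class the same count was 0 of 40 against 0.71% of all genes, with Plk1 at 0.56, Tpx2 at 0.34, Aurkb at 0.31, Ccna2 at 0.23 and Cdk1 at 0.19 as the highest and Ccnd1 at -0.74, Ccnd3 at -0.68, Ccne2 at -0.60, Gins2 at -0.44 and Ccne1 at -0.43 as the lowest.

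**Figure D3:**
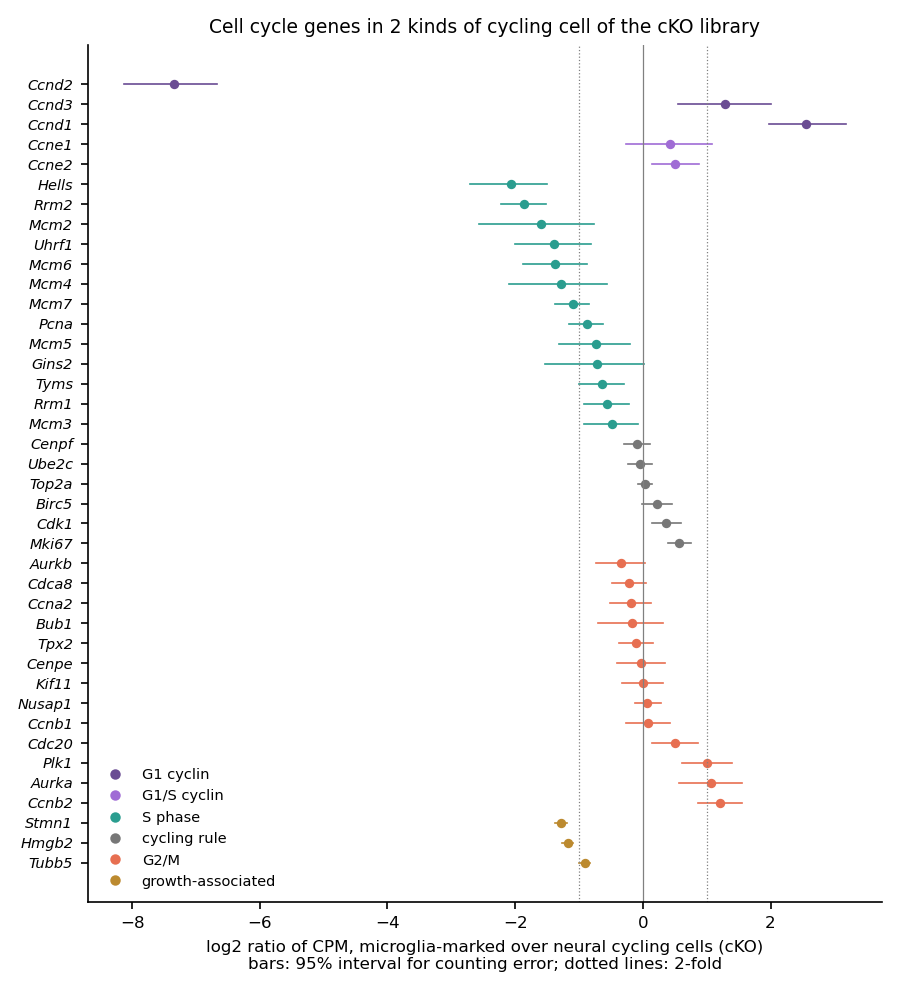
Log2 ratio of CPM in cycling microglia-marked over cycling neural cells of the cKO library (x axis) for each of the 40 genes (y axis, colours by role); bars are exact 95% intervals for counting error and dotted lines mark 2-fold. The 13 S phase genes lie below 0, from -2.07 to -0.49, G2/M genes from -0.35 to 1.21, and Ccnd2 at -7.35.

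Between the cycling cells of the 2 classes in cKO, 5 of the 40 genes lay past 2-fold higher in microglia-marked cells and 10 lower. The classes are different cell types, and 43.9% of all genes that passed lay past 2-fold in this comparison, so the count of 15 of 40 (37.5%) is near the background and only the values by role are described. Median log2 ratios were -1.10 for S phase genes, 0.00 for G2/M genes, 0.12 for the cycling-call genes and 0.46 for the 2 E-type cyclins, beside -0.17 over all genes. The depth of the cells differed in the same direction, with a median of 8976 UMIs in microglia-marked and 13842 in neural cycling cells; ratios are of CPM.

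The G1 cyclins showed the widest gap. Ccnd2, the D-type cyclin of neural precursors, stood at 5335 CPM in control and 5344 CPM in cKO cycling neural cells, and at 32.8 CPM (17 UMIs) in cKO cycling microglia-marked cells. That is a log2 ratio of -7.35 between the classes (interval -8.13 to -6.67). Ccnd1 stood at 48.5 and 26.2 CPM in neural cells and 155 CPM in microglia-marked cells, a log2 ratio of 2.56 (interval 1.97 to 3.18). Ccnd3 stood at 38.6, 26.2 and 63.8 CPM in the same order, with a log2 ratio of 1.28. Ccnd2 was thus far higher in cycling neural cells, while Ccnd1 and Ccnd3 were higher in the cycling microglia-marked cells. Cells of cKO that did not meet the rule had the same order. There Ccnd2 stood at 4352 CPM in neural and 23.6 CPM in microglia-marked cells, Ccnd1 at 26.9 and 229 CPM and Ccnd3 at 17.9 and 44 CPM. Among the E-type cyclins, which drive entry into S phase, Ccne1 stood at 48.5, 43.4 and 58 CPM and Ccne2 at 199, 134 and 191 CPM.

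S phase genes were lower in cycling microglia-marked cells without exception among the 13. Summed, they stood at 3210 CPM in cycling neural and 1501 CPM in cycling microglia-marked cells of cKO. In neural and microglia-marked cells that did not meet the rule they stood at 986 and 225 CPM in cKO. The control values there were 1050 and 175 CPM, so the gap between the classes was not confined to cycling cells. In the order control neural, cKO neural and cKO microglia-marked, the helicase subunits read as follows: Mcm2 stood at 88.2, 76.4 and 25.1 CPM, Mcm3 at 161, 163 and 116 CPM, and Mcm4 at 95.9, 84.6 and 34.8 CPM. Mcm5 stood at 108, 113 and 67.6 CPM, Mcm6 at 253, 199 and 77.3 CPM, and Mcm7 at 731, 577 and 269 CPM. Of these Mcm2 (log2 ratio -1.60), Mcm6 (-1.37), Mcm4 (-1.28) and Mcm7 (-1.10) lay past 2-fold between the classes, and none did between the libraries. Pcna, the sliding clamp of DNA polymerase, stood at 547, 535 and 290 CPM, and Gins2, a further helicase component, at 82.7, 60.7 and 36.7 CPM. Among the enzymes of nucleotide supply, Tyms stood at 249, 253 and 162 CPM and Rrm1 at 285, 248 and 168 CPM. Rrm2, the ribonucleotide reductase subunit made in S phase, stood at 441, 534 and 147 CPM, a log2 ratio of -1.86 (interval -2.22 to -1.52). Hells and Uhrf1, which maintain DNA methylation on new DNA, stood at 230, 219 and 52.2 CPM and at 196, 147 and 56 CPM, with log2 ratios of -2.07 (interval -2.70 to -1.50) and -1.39. The shares of cells with a UMI followed: Hells was seen in 76.1% of cKO neural and 23.1% of cKO microglia-marked cycling cells.

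Genes of mitosis were at like levels in both classes, with 3 exceptions past 2-fold. Ccnb2 stood at 89.3 CPM in control neural, 111 CPM in cKO neural and 257 CPM in cKO microglia-marked cycling cells, a log2 ratio between the classes of 1.21 (interval 0.86 to 1.56). Plk1 stood at 57.3, 95.9 and 193 CPM (log2 ratio 1.01, interval 0.62 to 1.40), and Aurka, the kinase of the spindle poles, at 66.1, 59.9 and 126 CPM (1.07). The other cyclins of this phase were closer, with Ccnb1 at 160, 185 and 195 CPM and Ccna2 at 188, 236 and 207 CPM. Of the chromosomal passenger complex, Aurkb stood at 133, 182 and 143 CPM and Cdca8 at 315, 354 and 305 CPM. The checkpoint genes Bub1 and Cdc20 stood at 95.9, 98.1 and 86.9 CPM and at 115, 142 and 201 CPM. Of the spindle genes, Tpx2 stood at 235, 329 and 305 CPM, Nusap1 at 461, 511 and 537 CPM, Kif11 at 245, 231 and 230 CPM, and the kinetochore motor Cenpe at 164, 165 and 162 CPM. Kif11 and Cenpe were thus within 0.03 of a log2 ratio of 0 between the classes.

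The 6 cycling-call genes chose the cells, so their levels there are a description. In the same order Mki67 stood at 538, 570 and 848 CPM, Top2a at 1746, 1772 and 1810 CPM, and Birc5 (survivin) at 409, 365 and 425 CPM. Cdk1, the mitotic kinase, stood at 304, 374 and 483 CPM, Cenpf at 493, 553 and 520 CPM, and Ube2c, a ubiquitin-conjugating enzyme of mitotic exit, at 551, 621 and 601 CPM. All 6 were held by 41 of 71, 54 of 92 and 25 of 52 cells (57.7%, 58.7% and 48.1%). The 3 growth-associated genes were lower in microglia-marked cells: Stmn1, a microtubule destabiliser also used by young neurons, stood at 5650, 5892 and 2425 CPM, the tubulin gene Tubb5 at 4688, 4608 and 2446 CPM, and Hmgb2, a chromatin protein, at 5535, 6230 and 2747 CPM.

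Across all microglia-like cells, cycling or not, 39 of the 40 genes stood higher in cKO than in control. The share of all genes in that direction is not given. Over all genes that passed 20 CPM on average the median log2 ratio was 0.00. Summed over the 40, the level was 904 CPM in control (5101 UMIs) and 2731 CPM in cKO (12066 UMIs), a log2 ratio of 1.59 (interval 1.55 to 1.64). Of the 17 genes that passed 20 CPM on average, 12 lay past 2-fold higher and 0 lower, against 2.22% of all genes past 2-fold. Of these 17, 9 passed only through their level in cKO and so had to be higher there; of the 8 at 20 CPM or more in both libraries, 4 lay past 2-fold (Ccnd1, Mcm7, Stmn1 and Hmgb2). With the low-depth clusters included the count was again 12 of 17, against 2.17% of all genes. There too 9 passed only through cKO, and of the 8 at 20 CPM or more in both libraries 4 lay past 2-fold. In both counts 6 of the 12 were the cycling-call genes.

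**Figure D4:**
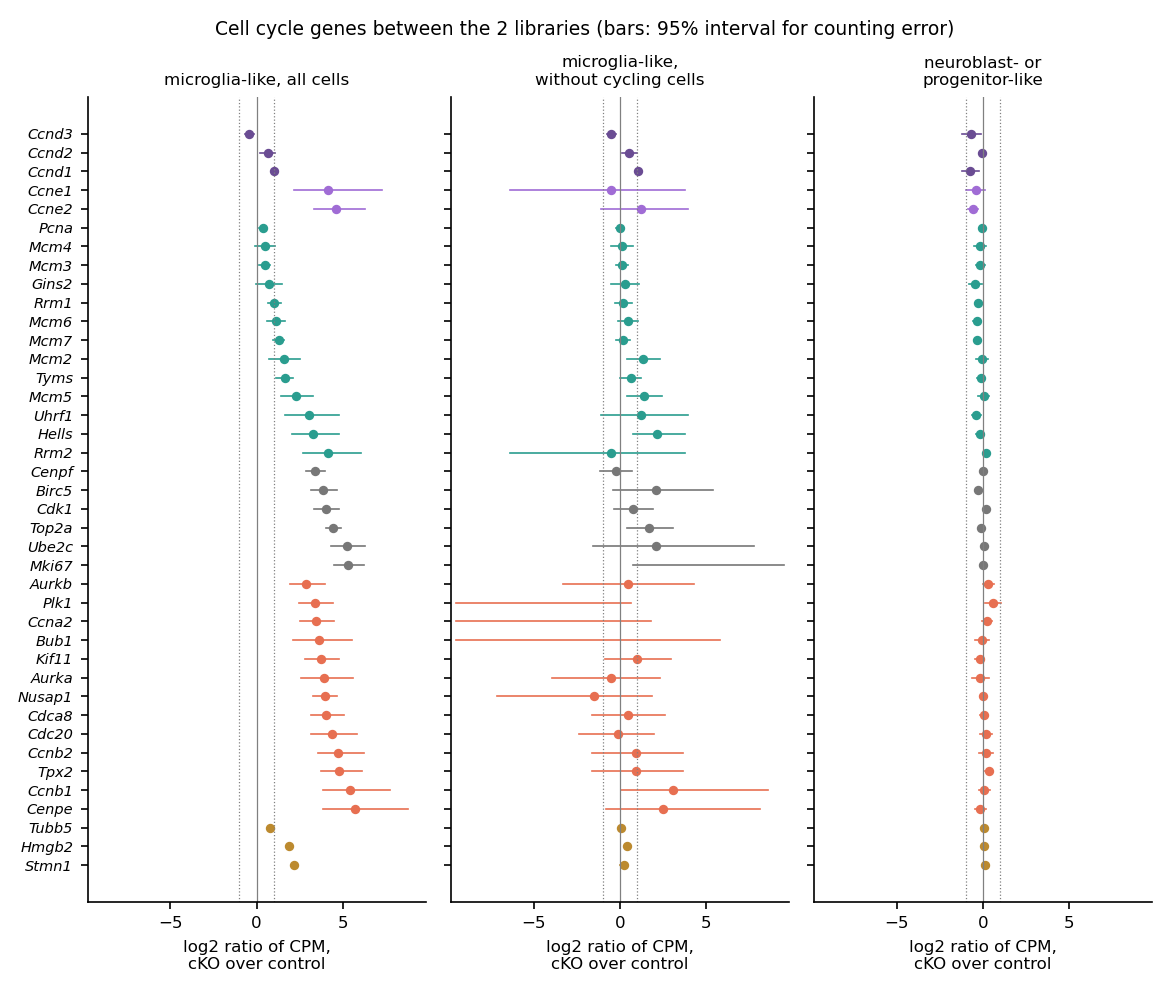
Log2 ratio of CPM in cKO over control (x axis) for each of the 40 genes (y axis, coloured by role: from the top D-type cyclins, E-type cyclins, S phase, cycling-call, G2/M and growth-associated genes) in all microglia-like cells, in microglia-like cells without the cycling ones and in neural cells; bars are exact 95% intervals for counting error, drawn to the edge of the axis where they run past it, and dotted lines mark 2-fold. Ratios run from -0.42 to 5.73 in all microglia-like cells and from -0.74 to 0.56 in neural cells.

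The widest ratios in microglia-like cells belonged to genes of mitosis. Cenpe counted 2 UMIs in control and 83 in cKO, a log2 ratio of 5.73 with an interval of 3.83 to 8.80. Ccnb1 counted 3 and 100 UMIs (5.41, interval 3.82 to 7.71), Mki67 13 and 400 (5.30), Ube2c 10 and 292 (5.22) and Tpx2 7 and 151 (4.78). Mki67 and Ube2c are genes of the cycling call. Of the 13 G2/M genes only 1 passed 20 CPM on average here, and Cenpe, Ccnb1 and Tpx2 did not. At the other end, Ccnd3 stood at 59.9 CPM in control and 44.8 CPM in cKO (log2 ratio -0.42, interval -0.68 to -0.16), and the replication genes Pcna at 73.4 and 93.9 CPM (0.36), Mcm4 at 9.04 and 12.4 CPM (0.46) and Mcm3 at 29.8 and 41.2 CPM (0.47). Ccnd2 stood at 16 and 24.7 CPM (0.63).

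Most of these UMIs came from the few cells called cycling, to a degree that depended on the role of the gene. In cKO the 34 cycling cells, 5.73% of the class, carried 97.2% of the class's G2/M UMIs, 95.2% of its E-type cyclin UMIs, 62.2% of the growth-associated, 45.2% of the S phase and 9.02% of the D-type cyclin UMIs. These cells were chosen by 6 genes that peak late in the cycle, so a high share of G2/M UMIs is in part set by the call. All 13 Mki67 UMIs of control sat in its 1 cycling cell. Without the cycling cells 8 of the 40 genes passed 20 CPM and 1 lay past 2-fold, Ccnd1 at 114 CPM in control and 240 CPM in cKO (log2 ratio 1.07), against 1.6% of all genes; the summed level then differed by 0.33 (interval 0.27 to 0.39). Ccnd1 was therefore higher in cKO in microglia-like cells that did not meet the cycling rule.

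In the other classes with at least 100 cells in both libraries, no gene of the 40 lay past 2-fold between libraries. In astrocyte-like cells 6 genes passed 20 CPM, from Pcna at 26.9 CPM in control and 39.1 CPM in cKO (log2 ratio 0.54), through Hmgb2 (0.32), Stmn1 (-0.04), Ccnd3 (-0.08) and Ccnd2 (-0.15), to Tubb5 (-0.36), against 0.542% of all genes past 2-fold. In endothelial-like cells 9 passed, against 0.636% of all genes. Hmgb2 at 0.40, Stmn1 at 0.21, Mcm6 at 0.11, Ccnd3 at -0.05 and Pcna and Tubb5 at -0.12 were the highest there, and Ccnd2 was the lowest at -0.68, with 122 CPM in control and 76.1 CPM in cKO. Ccnd1 stood at -0.30 and Mcm4 at -0.21. In oligodendrocyte-like cells 5 passed, against 0.396% of all genes: Hmgb2 at 0.39, Stmn1 at 0.20, Mcm7 at -0.06, Pcna at -0.12 and Tubb5 at -0.76 (137 and 80.7 CPM).

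Ependymal-like cells, which bear motile cilia and do not divide, held a gene of replication and a gene of mitosis at levels above those of each other named class without a cycling cell in either library; both were chosen after their values were seen. Kif11 stood at 47.7 CPM in control and 42 CPM in cKO, with a UMI in 48.8% and 47.7% of cells, against 0.305 and 0.642 CPM in oligodendrocyte-like cells. Mcm4 stood at 45.9 and 54.8 CPM against 18.2 and 19.9 CPM. Ependymal-like cells were the deeper class, with a median of 17488 and 14781 UMIs against 6393 and 7585, and CPM is relative to the total. The class had 9 genes past 20 CPM and 0 past 2-fold between libraries, against 0.822% of all genes. Between libraries the log2 ratios of these 9 were 0.26 for Mcm4 and Hmgb2, 0.19 for Stmn1, -0.08 for Ccnd3, -0.17 for Tubb5, -0.18 for Kif11, -0.21 for Pcna, -0.24 for Mcm7 and -0.29 for Ccnd2.

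**Figure D5:**
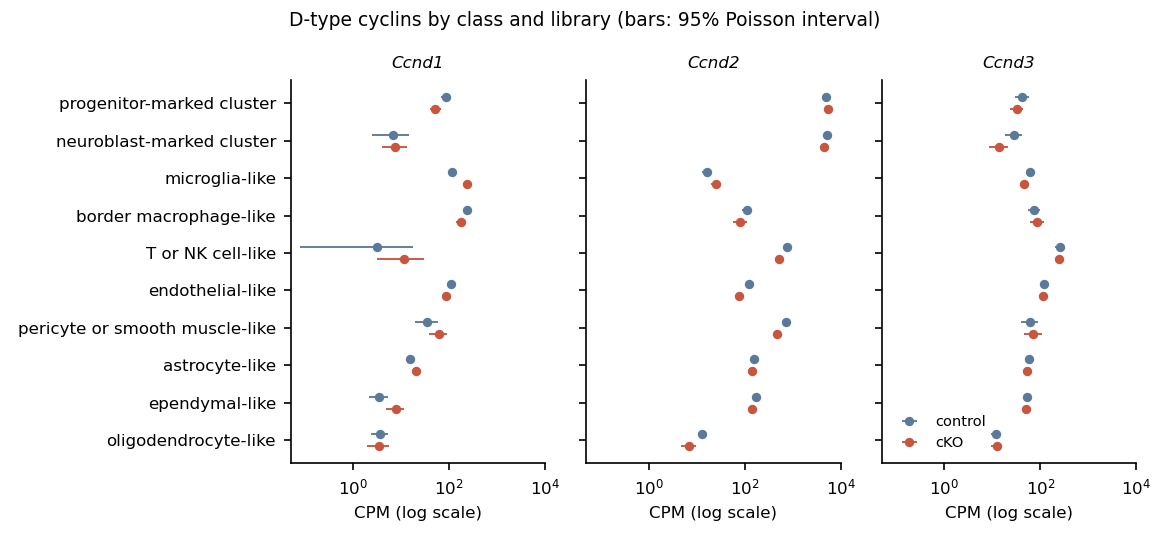
Level (x axis, CPM, log scale) of Ccnd1, Ccnd2 and Ccnd3 in each class (y axis) and library, with exact 95% intervals for counting error. Of the classes drawn, those with at least 50 cells in each library, Ccnd2 is lowest in oligodendrocyte-like cells (13 CPM in control and 6.85 CPM in cKO) and highest in the neuroblast cluster in control (5136 CPM) and the progenitor cluster in cKO (5413 CPM).

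Levels of the D-type cyclins were ordered over the 10 classes and clusters with at least 50 cells in each library; smaller classes, some of which stood higher on few UMIs, were not ranked. Each cyclin was highest in a different class. Ccnd2 stood at 4974 CPM in control and 5413 CPM in cKO in the progenitor cluster and at 5136 and 4381 CPM in the neuroblast cluster, although the neuroblast cluster cycled far less. It was next in T or NK-like cells (770 and 505 CPM) and pericyte- or smooth muscle-like cells (714 and 480 CPM). Ccnd1 was highest in border macrophage-like cells in control (233 CPM, against 173 CPM in cKO) and in microglia-like cells in cKO (232 CPM, against 114 CPM in control). Among these 10 it was followed by endothelial-like cells (107 and 86.8 CPM) and the progenitor cluster (85.5 and 51.5 CPM), and in the neuroblast cluster it stood at 6.62 and 7.6 CPM. Ccnd3 was highest in T or NK-like cells (251 and 249 CPM) and next in endothelial-like cells (120 and 116 CPM). Among these 10, the order of the 2 leading classes for Ccnd1 thus turned between the libraries, while Ccnd3 kept its 2 leading classes.

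Stmn1 also marked cells that did not cycle, whereas Hmgb2 in the neural class was far higher in the cycling cells. Hmgb2 stood at 5535 CPM in control and 6230 CPM in cKO in cycling neural cells, and at 469 and 597 CPM in the other neural cells. Stmn1 stood at 6506 CPM in control and 6716 CPM in cKO in the neuroblast cluster and at 4271 and 4882 CPM in the progenitor cluster, the reverse of the order of their cycling shares. It stood at 2133 and 2443 CPM in oligodendrocyte-like cells, of which none cycled. Hmgb2 followed the cycling shares of the neural clusters, at 4553 and 5652 CPM in the progenitor and 1799 and 1505 CPM in the neuroblast cluster. In the RNA of cKO barcodes with 1 to 100 UMIs, which is mostly free RNA, Stmn1 stood at 481 CPM, Hmgb2 at 183 CPM and Ccnd2 at 175 CPM, while Mki67 stood at 17.6 CPM and Top2a at 36.2 CPM. Some cKO classes lay far below these values, with Stmn1 at 25.8 CPM in T or NK-like cells and Hmgb2 at 30.8 CPM in oligodendrocyte-like cells. How much free RNA adds to the levels of each class was not tested, and free RNA could be read in cKO only.

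A further 64 genes of the cell cycle machinery in 6 lists, none of them among the 40, were read in the same cells. Between the libraries in cycling neural cells 0 of the 61 that passed lay past 2-fold, near the 1.53% of all genes. In cKO, cycling microglia-marked cells stood past 2-fold higher than neural cells for 3 of the 61 and lower for 10, against the background of 43.9% given above. Of origin licensing and replication genes 6 of 14 were lower and 0 higher, with Dut, which removes dUTP, at 812 CPM in control neural, 834 CPM in cKO neural and 122 CPM in cKO microglia-marked cells (log2 ratio -2.78), Rfc4 at 208, 213 and 59.9 CPM (-1.83) and Lig1 at 535, 421 and 178 CPM (-1.24). Slbp, the histone mRNA binding protein, stood at 229, 276 and 193 CPM (-0.52). Of spindle and kinetochore genes 1 of 15 was higher, Anln (155 against 58.4 CPM in cKO), and 0 lower; Prc1 stood at 369, 388 and 547 CPM, Cenpa at 310, 335 and 402 CPM, Spc25 at 248, 291 and 147 CPM and Knl1 at 192, 194 and 230 CPM.

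Of the chromosome condensation genes 0 of 8 lay past 2-fold between the classes, with the histone gene H2afz at 4798, 4905 and 2973 CPM, H2afx at 501, 575 and 431 CPM, Smc4 at 489, 505 and 466 CPM and Smc2 at 398, 464 and 479 CPM. Of E2F and pocket protein genes 1 of 10 was lower (Mybl2, -2.04); E2f3 stood at 119, 106 and 88.9 CPM, Rb1 at 94.8, 103 and 86.9 CPM, Foxm1 at 70.5, 59.9 and 106 CPM and Rbl1 at 39.7, 53.9 and 94.7 CPM. Of the kinases and phosphatases 2 of 9 were lower: Cdk4, the kinase of D-type cyclins, stood at 669, 730 and 94.7 CPM (log2 ratio -2.95) and Cdc25a at -1.28. Cdk6, the other kinase of D-type cyclins, stood at 179, 160 and 88.9 CPM (-0.85), Cks2 at 439, 470 and 454 CPM and Cks1b at 294, 316 and 269 CPM. Ccnd2 and Cdk4 were therefore both lower in cycling microglia-marked cells than in cycling neural cells. Outside the cycling rule Cdk4 was also lower, at 474 CPM in neural and 54.3 CPM in microglia-marked cells of cKO, so the gap was not particular to cycling cells.

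The inhibitors of these kinases held the other outlying values. Cdkn1a (p21) stood at 70.5 CPM in control neural and 44.9 CPM in cKO neural cycling cells, and at 1219 CPM in cKO cycling microglia-marked cells, a log2 ratio of 4.76 (interval 4.38 to 5.17). In microglia-marked cells that did not meet the cycling rule it stood at 20.7 CPM in control and 646 CPM in cKO. Its mRNA was thus present in the pooled cKO cells on both sides of the rule. In the other neural cells it stood at 12.1 and 17.3 CPM. Whether cells with Cdkn1a were moving through the cycle was not tested. Cdkn2a stood at 1.1, 5.24 and 77.3 CPM in cycling control neural, cKO neural and cKO microglia-marked cells (log2 ratio 3.88, interval 2.71 to 5.29). Cdkn1b (p27) stood at 215, 286 and 100 CPM (-1.51). Cdkn2c stood at 129, 145 and 255 CPM (0.82) and Cdkn2d at 112, 167 and 184 CPM (0.14). Cdkn1c at 28.7, 21.7 and 9.66 CPM and Cdkn2b at 1.1, 1.5 and 3.86 CPM did not pass 20 CPM on average between the classes.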

How the data were processed

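Counts were deposited by the authors as 1 matrix of UMI counts per library, whole numbers that were not normalized, made with Cell Ranger 7.1.0 on mm10 per the submitters' processing notes; for the annotation release and the handling of intronic reads, the setting is not given in the sources used here. Per the labels' protocols the libraries were 10x 3′ v3.1. The control matrix holds 10942 barcodes with at least 500 UMIs each (64756949 UMIs in all), whereas the cKO matrix is unfiltered, with 2377349 barcodes, 63785513 UMIs and 20.6% of UMIs in barcodes under 500.

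Barcodes with at least 1000 UMIs, 500 genes and at most 10% mitochondrial UMIs were kept (8068 control, 5398 cKO), and Scrublet's doublet calls (423 and 192, of which 6 cycling cells in each library) were removed. Clusters were made with scanpy 1.11.5 and leidenalg 0.10.2 (2000 variable genes without 311 cell cycle genes, 30 components, 15 neighbours, resolution 1.0; 29 clusters) and named from 21 marker lists. Levels are UMIs summed over cells per 1000000 UMIs (CPM). A gene was called past 2-fold among genes with at least 20 CPM averaged over the groups compared. Intervals are exact (Clopper-Pearson for shares and ratios, Poisson for levels) at 95%, cover counting error only and treat cells of 1 library as 1 sample; upper limits for a count of 0 use 3 counts. To compare shares at equal depth, cells were thinned to 1000 UMIs. The calculation was tested on simulated data. Gene identifiers matched GENCODE vM21 for 99.8%. The text gives all 40 genes in cycling cells, the 5 highest and 5 lowest log2 ratios per main class, up to 4 genes per further list with the most UMIs in cycling cells, and all CDK inhibitors; others were named after their values were seen. The genes and lists were chosen with earlier results of these data known. Alternatives covered filters, doublets, the cycling rule, thinning, clustering, scaling and the CPM minimum.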

Additional observations from a re-analysis of the deposited data

Results flagged for a closer look

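The cKO to control ratio of the cycling share differed between classes: on the log2 scale it was 6.22 in microglia-like cells (1 of 1303 against 34 of 593) and -0.19 in neuroblast- or progenitor-like cells (71 of 231 against 92 of 342), with opposite signs. The neural sign turned with cells thinned to 1000 UMIs (11.3% in control and 12.6% in cKO) but not to 2000 UMIs (20.9% and 17.5%), and the intervals of the unthinned shares overlap. With 1 library per group the difference was not tested.

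Barcodes left out for a mitochondrial share over 10% also held cells that meet the cycling rule, 4 of 2036 in control (0.196%, interval 0.0536 to 0.502) and 5 of 3480 in cKO (0.144%, interval 0.0467 to 0.335). Barcodes left out for low depth held 1 of 838 and 2 of 909. These barcodes enter no comparison. None of the 4 or the 5 held 5 microglial markers, and 2 of the control barcodes held at least 5 neuroblast markers.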

How the results depend on the processing

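No paired analysis was possible because each group has 1 library, and the number in both titles pairs nothing. Of 244 values recomputed under an alternative, 182 stayed within the limits set and 62 moved. Among these the S to G2/M ratio of cycling neural cells turned in sign when cells were thinned, and so did its difference between the libraries at 1000 UMIs; 0 has no meaning for this ratio itself. The cycling share of microglia-like cells was higher in cKO under each alternative for which it was computed (29.7 to 108 times the control share, 74.7 as reported), and the S to G2/M ratio was lower in cycling microglia-marked than in neural cells of cKO (difference -0.69 to -1.34). The cause of a moved value was not tested, apart from settings that leave out cells or UMIs by construction.

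With cells thinned to 1000 UMIs, cycling shares were 0.379% of control and 1.46% of cKO cells, 11.3% and 12.6% of neural cells, 3.37% of cKO microglia-like and 3.48% of cKO microglia-marked cells; S to G2/M log2 ratios were -0.99 (control neural), -0.21 (cKO neural) and -1.36 (cKO microglia-marked). Members past 2-fold between libraries then numbered 6 in microglia-like, 2 in neural, 1 in endothelial-like, 3 in ependymal-like and 1 in oligodendrocyte-like cells, and summed log2 ratios were 1.13, -0.00 (neural), 0.10 (ependymal-like) and 0.22 (oligodendrocyte-like). With thinning to 2000 UMIs the shares were 0.756% and 2.05% of all cells and 20.9% and 17.5% of neural cells, and the neural ratios were -0.05 and -0.22.

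With a mitochondrial limit of 5% the shares were 1.83% and 4.27% of all cells, the summed log2 ratios 1.73 (microglia-like), -0.03 (neural), 0.07 (astrocyte-like), -0.36 (ependymal-like) and 0.20 (oligodendrocyte-like), and 1 member lay past 2-fold in oligodendrocyte-like cells. A call from at least 2 of the 6 genes gave 3.67% of cKO cells, 32.7% of cKO neural cells and a cKO neural ratio of 0.46. At least 4 of 6 gave ratios of 0.49 and 0.13 (neural) and -1.21 (microglia-marked). The call from S phase genes gave 1.32% of control cells, 3.69% of cKO microglia-marked cells and ratios of 1.05 and 0.77 (neural) and 0.07 (microglia-marked). Cells classed by their own markers, chosen after seeing the data, gave a control neural ratio of 0.69.

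With cell cycle genes kept in the clustering, 8.36% of cKO microglia-like cells cycled and their summed log2 ratio was 1.70; with a floor of 2000 UMIs it was 1.66, with doublet calls kept 1.49, and with low-depth clusters included 1.64. Doublet calls kept gave 0.04 (neural), 0.04 (endothelial-like) and -0.11 (ependymal-like). Averaging counts per 10000 over cells gave 6 members past 2-fold in microglia-like cells and summed ratios of 1.21, -0.03 (neural) and 0.19 (oligodendrocyte-like). A minimum of 5 CPM gave 30 members in microglia-like and 2 in ependymal-like cells. Without cycling cells, an alternative added after seeing the data, 1 member lay past 2-fold in microglia-like and 1 in neural cells, with summed ratios of 0.33 and 0.08.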
